A study of Homo sapiens with 6 samples.

Results

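The genes described here are 9 human genes of extracellular matrix breakdown and its control: the tissue inhibitors of metalloproteinases TIMP1, TIMP2 and TIMP3, the matrix metalloproteinases MMP1, MMP3, MMP9 and MMP14, the urokinase-type plasminogen activator PLAU and its receptor PLAUR. They were chosen by name, with earlier results of these data known. Every probe set whose only gene symbol in the platform annotation is one of them was read. This gave 18 of the 19065 named probe sets and 9 of the 11963 named genes. The study compared LCCTam, a tamoxifen-resistant variant of SUM44, with SUM44 itself, a breast cancer cell line from an invasive lobular carcinoma labelled as positive for the estrogen and progesterone receptors. LCCTam was sampled at passages 8, 9 and 10 and grown with 500 nM 4-hydroxytamoxifen, the active metabolite of tamoxifen, per the labels' protocols. SUM44 was sampled at passages 74, 75 and 76 in the same medium with no drug stated, and both lines were harvested before confluence. Resistance, the drug and the passage number therefore differ together between the lines and cannot be told apart. The labels do not say whether LCCTam is 1 clone.

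Matrix metalloproteinases are zinc enzymes that cut collagens, laminins, proteoglycans and other matrix proteins, and they are made as inactive precursors. TIMPs bind their active sites and block them, and they also block some ADAM proteases at the cell surface. Urokinase, held at the cell surface by its receptor, converts plasminogen to plasmin, which cuts fibrin and matrix and activates several metalloproteinase precursors. In breast tumours much of this system is made by stromal cells, so a pure tumour line need not express all of it.

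The values are log2 expression after RMA, in which 1 unit is a 2-fold change and no value stands for an absence of RNA. The arrays of both lines had medians of 5.92 to 5.97. The upper quartiles were 7.68, 7.71 and 7.5 in LCCTam at passages 8, 9 and 10. In SUM44 they were 7.78, 7.73 and 7.73 at passages 74, 75 and 76. Every LCCTam upper quartile lay below those of SUM44, and LCCTam passage 10 had the lowest. That array also differed from the others in its actin control. The actin 3' minus 5' log2 difference was 1.92 there, against 0.90 to 1.15 on the other 5 arrays. For the GAPDH control it was 0.61, against 0.09 to 0.31. Of 12 epithelial markers 0 passed an adjusted p of 0.05 in limma, with 4 at an unadjusted p under 0.05. Their mean log2 level was 9.61 to 10.12 over the LCCTam arrays and 10.07 to 10.48 over the SUM44 arrays. The median difference of these markers, LCCTam minus SUM44, was -0.27, against 0.02 over all genes. MUC1 differed most, at -1.38 (limma adjusted p = 0.0517), and the highest difference was 0.08. Of 10 leukocyte and endothelial markers 0 passed in limma, with 0 at an unadjusted p under 0.05. Their means were 4.89 to 4.99 in LCCTam and 4.87 to 4.95 in SUM44. The share of all named probe sets at an unadjusted p under 0.05 was not counted, so nothing is drawn from these unadjusted counts. Of 12 fibroblast markers 1 passed, the collagen gene COL3A1, and their means were 5.13 to 5.20 in LCCTam and 5.51 to 5.54 in SUM44.

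TIMP1 was the only one of the 9 genes with a difference that passed the test, and it was lower in LCCTam, by 2.59-fold. The test was limma over all 19065 named probe sets, and a probe set passed at a Benjamini-Hochberg adjusted p under 0.05. One of the 18 probe sets passed, which is 5.56%, against 7.37% of all named probe sets in either direction and 5.65% in the lower direction. Counted by gene, with the brightest probe set for each, 1 of 9 passed (11.1%), against 7.76% of all genes. With 1 call, neither share sets the 9 genes apart from the rest of the array.

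**Figure D1:**
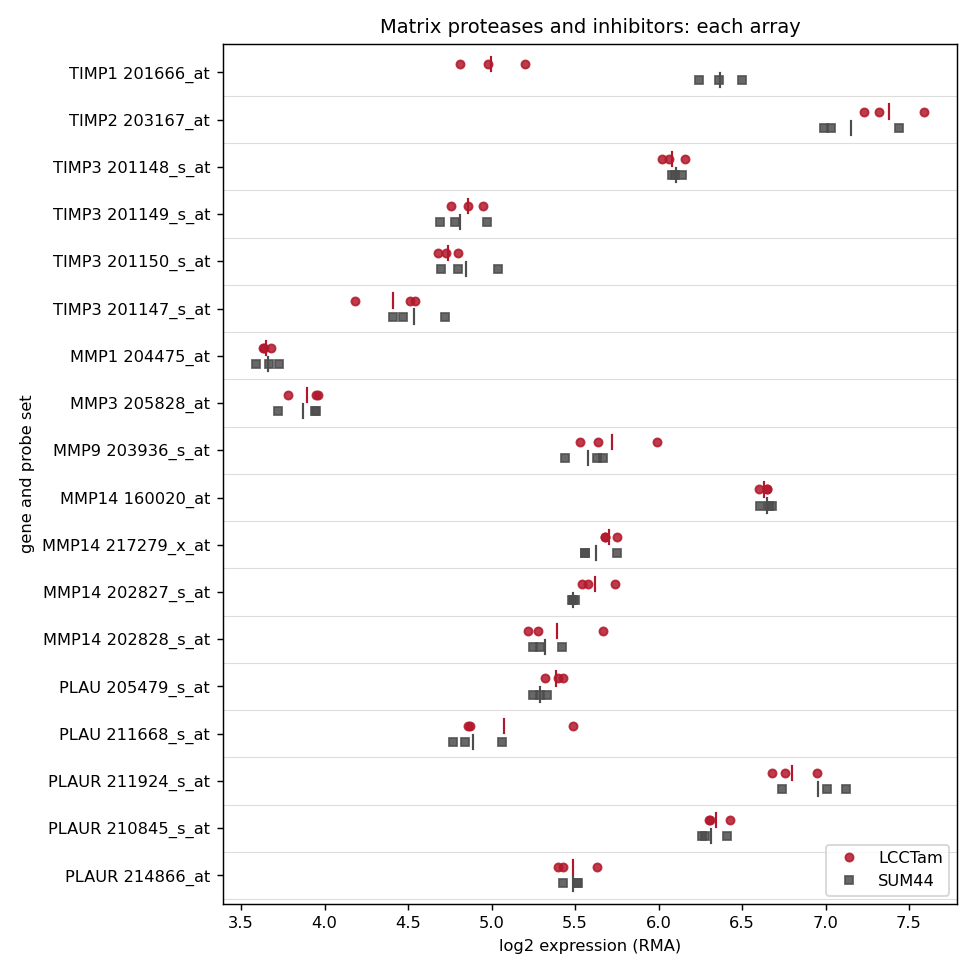
Log2 expression (RMA, x axis) of the 18 probe sets of the 9 genes, 1 row each, with LCCTam arrays as red circles above SUM44 arrays as grey squares (3 arrays each). Vertical ticks are the line means. TIMP1 has its LCCTam values at 4.81 to 5.20 and its SUM44 values at 6.24 to 6.50, while in 16 of the other 17 rows the lines overlap.

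TIMP1 encodes a secreted inhibitor of most soluble metalloproteinases. Its gene lies at chrX:47582436-47586789 in GRCh38.p14, inside the span that the same annotation gives to SYN1 (chrX:47571901-47619857). The promoter is known as a site of AP-1 and ETS control, and the 250 bases before the annotated start (RefSeq, plus strand, chrX:47582186-47582435) are shown because TIMP1 is the gene that changed. PLAUR is shown beside it (minus strand, chr19:43670170-43670419) as a gene with a known AP-1 control element whose level did not pass. Capitals mark matches on either strand to TGANTCA (the AP-1 consensus), TGAGTAA (a variant of it known from TIMP1) and CAGGAAG (an ETS-type motif).
TIMP1: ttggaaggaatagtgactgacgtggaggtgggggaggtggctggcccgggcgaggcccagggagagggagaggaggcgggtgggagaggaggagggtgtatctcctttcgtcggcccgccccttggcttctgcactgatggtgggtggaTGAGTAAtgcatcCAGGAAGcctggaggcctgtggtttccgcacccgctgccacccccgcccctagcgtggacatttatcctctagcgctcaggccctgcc
PLAUR: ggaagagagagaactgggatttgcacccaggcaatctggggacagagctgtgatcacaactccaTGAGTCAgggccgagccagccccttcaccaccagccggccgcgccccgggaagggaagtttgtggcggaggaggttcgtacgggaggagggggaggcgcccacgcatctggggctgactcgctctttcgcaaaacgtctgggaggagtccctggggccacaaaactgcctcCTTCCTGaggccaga

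In TIMP1 the TGAGTAA match begins 101 bases before the start and the CAGGAAG match 88 bases before it, and no match overlaps another. In PLAUR the TGANTCA match begins 186 bases before the start, and CAGGAAG lies on the opposite strand beginning 15 bases before it. Of 35116 promoter windows of 250 bases, 6.57% held TGANTCA, 2.21% TGAGTAA and 10.5% CAGGAAG. Since TGAGTAA was taken from TIMP1 and PLAUR was picked for a known AP-1 element, nothing is drawn from how rare those matches are. Promoter windows were at hand for 5 of the 9 genes, and those of TIMP3, MMP14 and PLAU held none of the 3 motifs. A match describes letters in a window and is neither a bound site nor a cause of a level.

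TIMP1 was read by 1 probe set, 201666_at. Its log2 expression was 4.98, 4.81 and 5.20 in LCCTam at passages 8, 9 and 10, against 6.50, 6.24 and 6.36 in SUM44 at passages 74, 75 and 76. Every LCCTam value lay below every SUM44 value, with a gap wider than the range within either line (0.39 in LCCTam and 0.26 in SUM44). The means were 4.99 ± 0.19 in LCCTam and 6.37 ± 0.13 in SUM44 (SD, n = 3 each). The difference was -1.37 (SE 0.12, 95% interval -1.67 to -1.08, limma adjusted p = 0.00227), so TIMP1 was 2.59-fold lower in LCCTam. Its LCCTam mean stood at percentile 28.7 of all named probe sets in that line, and its SUM44 mean at percentile 54.9. The low LCCTam level may sit near the background of the array, which is unknown, and differences that reach dim levels can be compressed.

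The TIMP1 difference did not rest on 1 array. Leaving out each array in turn gave differences of -1.47 to -1.28 and adjusted p-values of 0.00244 to 0.0183. TIMP1 also passed the authors' stated selection (a change of 2-fold or more with unadjusted p below 0.05, and an intensity of 10 or more on the linear scale in each line; limma's p was used, since no test is named), as the only one of the 18 probe sets, where 2.23% of all named probe sets did. Among the 1078 probe sets that fell over the whole array, 129 had a larger decrease. RNA was taken from whole cultures, so fewer TIMP1-expressing cells and less TIMP1 RNA per cell cannot be told apart. TIMP1 is also made by fibroblasts, and the fibroblast marker COL3A1 was lower in LCCTam as well, at 3.98, 4.32 and 4.36 in LCCTam and 8.23, 8.74 and 8.96 in SUM44. Of the other 11 fibroblast markers 0 passed, with differences of -0.18 to 0.18, and their mean log2 level was 5.21 to 5.27 in LCCTam and 5.21 to 5.26 in SUM44.

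TIMP2, which inhibits metalloproteinases and also helps MMP14 to activate the gelatinase MMP2, did not pass. Its 1 probe set read 7.59, 7.32 and 7.23 in LCCTam, against 7.03, 7.44 and 6.99 in SUM44. The SUM44 array of passage 75 lay inside the LCCTam range, so the lines overlapped. The difference was 0.22 (95% interval -0.14 to 0.59, limma adjusted p = 0.437). That interval holds no 2-fold change in either direction.

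TIMP3, the inhibitor that binds to the matrix and blocks the widest range of ADAM proteases, was read by 4 probe sets and none passed. The brightest, 201148_s_at, read 6.16, 6.02 and 6.06 in LCCTam, against 6.14, 6.10 and 6.08 in SUM44. The values spanned 0.14 in LCCTam and 0.06 in SUM44, and all 3 SUM44 values lay inside the LCCTam range. Over the 4 probe sets the differences ran between -0.13 and 0.04, with 95% bounds between -0.44 and 0.29 and limma adjusted p-values of 0.586 to 0.893. The other 3 TIMP3 probe sets were dimmer, at 4.18 to 4.95 in LCCTam and 4.41 to 5.04 in SUM44. Probe sets of a gene share the RNA of their array and are not independent readings.

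The change of TIMP1 was set against those of TIMP2 and TIMP3 on each array. Taking the log2 value of TIMP1 minus that of the other inhibitor, the difference between LCCTam and SUM44 was -1.59 relative to TIMP2 and -1.35 relative to TIMP3, and the lines did not overlap in either. An exact two-sided permutation test of 3 arrays against 3 cannot go below p = 0.1, so it could not have passed 0.05 whatever the values, and nothing is drawn from it. These differences are given as values only.

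**Figure D2:**
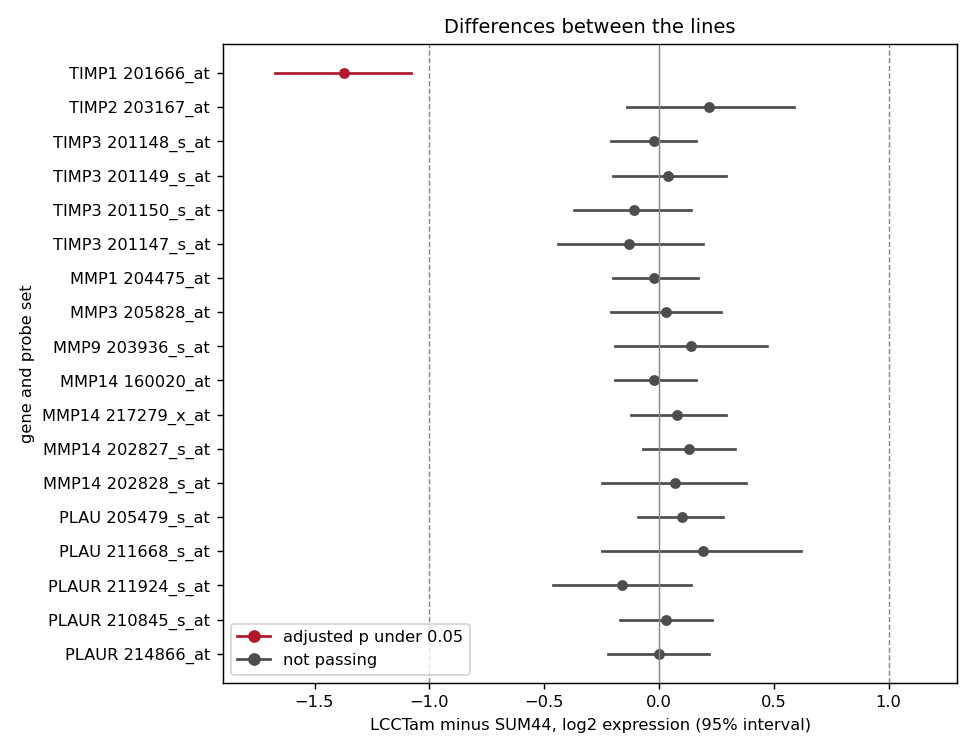
LCCTam minus SUM44 in log2 expression (x axis) for the 18 probe sets, with 95% intervals from limma; dashed lines mark a 2-fold change. TIMP1 lies at -1.37, with its interval of -1.67 to -1.08 outside the dashed lines. The other 17 probe sets lie between -0.16 and 0.22, with each of their intervals inside the dashed lines.

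None of the 4 metalloproteinase genes passed the test. MMP1, the interstitial collagenase, read 3.68, 3.64 and 3.63 in LCCTam, against 3.67, 3.73 and 3.59 in SUM44, a difference of -0.02 (95% interval -0.20 to 0.17, limma adjusted p = 0.923). MMP3, stromelysin-1, which cuts many matrix proteins and activates other metalloproteinases, read 3.95, 3.96 and 3.78 in LCCTam, against 3.95, 3.72 and 3.94 in SUM44, a difference of 0.03 (95% interval -0.21 to 0.27, adjusted p = 0.904). Both genes lie in the cluster of metalloproteinase genes on chromosome 11. Their probe sets were among the dimmest of the array, with MMP1 at percentile 1.72 of all named probe sets in LCCTam and 1.85 in SUM44, and MMP3 at 5.76 in LCCTam and 5.32 in SUM44. The values do not tell whether either gene was expressed, and a change below the array's background was not detectable.

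MMP9, the gelatinase that cuts basement membrane collagen, read 5.53, 5.64 and 5.99 in LCCTam, against 5.67, 5.63 and 5.44 in SUM44. The highest value came from LCCTam passage 10, and the lines otherwise overlapped. The difference was 0.14 (95% interval -0.19 to 0.47, limma adjusted p = 0.602), and 0.00187 without LCCTam passage 10, the array with the larger actin 3' minus 5' difference. The part of that array's quality in the value was not tested.

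MMP14, the membrane-bound collagenase that activates MMP2, was read by 4 probe sets. The brightest, 160020_at, read 6.60, 6.65 and 6.65 in LCCTam, against 6.61, 6.66 and 6.68 in SUM44, values that overlap almost exactly. The 4 differences ran between -0.02 and 0.13, with 95% bounds between -0.25 and 0.38 and limma adjusted p-values of 0.408 to 0.916. The probe set 202827_s_at read 5.74, 5.58 and 5.54 in LCCTam, against 5.50, 5.49 and 5.48 in SUM44. It was the only probe set besides that of TIMP1 whose lines did not overlap, and here LCCTam was above. The 3 SUM44 values were within 0.02 of each other, and the difference of 0.13 had an adjusted p of 0.408 by limma. With array weights 202827_s_at passed, at 0.22 (limma adjusted p = 0.0262), while the other 3 MMP14 probe sets did not. In that fit 6207 of the 19065 named probe sets passed, against 1405 in the main fit. In the dimmest MMP14 probe set, 202828_s_at, LCCTam passage 10 read 5.67, against 5.22 and 5.28 at the other LCCTam passages and 5.25 to 5.42 in SUM44. Its difference was 0.07, and -0.07 without that array.

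Lines that did not overlap were counted for 2 of the 18 probe sets (11.1%), 1 with LCCTam below and 1 with LCCTam above. Over all named probe sets 29.6% did not overlap, 16.6% with LCCTam below and 13.0% with LCCTam above. The median difference of the 18 probe sets was 0.03, against 0.01 over all named probe sets. Their values varied within a line by a median SD of 0.12 (0.03 to 0.28), against 0.15 over all named probe sets. The 17 probe sets other than that of TIMP1 gave 11 differences above 0 and 6 below, with limma adjusted p-values of 0.408 to 0.995. Of them 0 had an unadjusted p under 0.05. Their 95% intervals all lay between -0.46 and 0.62, so the largest change inside any of them was 1.54-fold. The count at an unadjusted p under 0.05 was not made over all named probe sets, so nothing is drawn from it.

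PLAU, the urokinase gene, was read by 2 probe sets. The brighter, 205479_s_at, read 5.32, 5.40 and 5.43 in LCCTam, against 5.29, 5.33 and 5.25 in SUM44, a difference of 0.10 (95% interval -0.09 to 0.28, limma adjusted p = 0.514). The LCCTam values lay above those of SUM44 except at passage 8, which was just under SUM44 passage 75. The other, 211668_s_at, read 4.87, 4.86 and 5.49 in LCCTam, against 4.84, 4.77 and 5.06 in SUM44, with LCCTam passage 10 standing above the rest. Its difference was 0.19 (95% interval -0.25 to 0.62, adjusted p = 0.601), the widest interval of the 18, and -0.02 without that array. The highest LCCTam value came from passage 10 in 7 of the 18 probe sets. The same share was not counted over all named probe sets, and nothing is drawn from it.

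PLAUR, the receptor that holds urokinase at the cell surface, was read by 3 probe sets and none passed. The brightest, 211924_s_at, read 6.95, 6.68 and 6.76 in LCCTam, against 6.74, 7.01 and 7.12 in SUM44. The lines overlapped, and the difference of -0.16 (95% interval -0.46 to 0.14, limma adjusted p = 0.505) was the lowest of the 17 that did not pass. The probe set 210845_s_at read 6.43, 6.30 and 6.31 in LCCTam, against 6.28, 6.26 and 6.41 in SUM44, and 214866_at read 5.63, 5.43 and 5.40 in LCCTam, against 5.51, 5.43 and 5.52 in SUM44. For 210845_s_at the difference was 0.03, and over both the 95% intervals lay between -0.22 and 0.23. The TGANTCA match in the PLAUR promoter window is shown above, and whether AP-1 acts there in these lines was not tested.

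Other genes of matrix breakdown were taken from 7 lists, with the brightest probe set for each gene. Of 88 measured genes 1 rose and 6 fell, which is 7.95% passing. Of all 11963 genes 243 rose and 685 fell, which is 7.76%, so falls outnumbered rises over the whole array too. The median difference of the 88 genes was 0.02, as was that of all genes. Of 17 other metalloproteinases 0 passed by limma, 4 had an unadjusted p under 0.05, and the largest difference was that of MMP17, a membrane-anchored enzyme, at 0.36 (adjusted p = 0.0884). MMP17 passed without LCCTam passage 10, at 0.45 (adjusted p = 0.0248), with quantile normalization, at 0.41 (adjusted p = 0.0415), and with array weights, at 0.50 (adjusted p = 0.00126), and in none of the other alternative fits. Over all named probe sets those fits passed 2238, 1583 and 6207 in the same order, against 1405 in the main fit. Of 5 other metalloproteinase inhibitors 0 passed, 0 had an unadjusted p under 0.05, and TIMP4 differed most, at 0.20 (limma adjusted p = 0.467). Nothing is drawn from the unadjusted counts, since the same share was not counted over all genes.

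Of 18 ADAM and ADAMTS proteases 0 rose and 2 fell. ADAM10, a membrane protease that sheds cell surface proteins and is known to be blocked by TIMP1 and TIMP3, read 7.44, 7.53 and 7.85 in LCCTam, against 8.53, 8.57 and 8.49 in SUM44 (difference -0.93, limma adjusted p = 0.00704). All 3 of its probe sets passed. ADAM9, a related membrane protease, differed by -1.28 (adjusted p = 0.0043). Of 12 other plasminogen activation genes 1 fell, SERPINA5, a serpin that can inhibit urokinase, at 6.05, 6.62 and 5.38 in LCCTam and 9.58, 8.36 and 8.02 in SUM44 (difference -2.63, adjusted p = 0.0193). Of 11 membrane serine proteases and Kunitz inhibitors 1 fell, TMPRSS3, at -1.01 (adjusted p = 0.0178). The SERPINA5 and TMPRSS3 calls were lost without LCCTam passage 8 (adjusted p = 0.0792 and 0.0818) and without SUM44 passage 75 (0.0773 and 0.0858).

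Of 12 receptors and partners of urokinase's receptor and of metalloproteinases 1 rose and 1 fell. ITGA3, an integrin subunit that pairs with the urokinase receptor, differed by 0.42 (limma adjusted p = 0.0356), and CD44, a hyaluronan receptor that holds MMP9 at the cell surface, by -0.73 (adjusted p = 0.0454). CD44 did not pass when any 1 array was left out (adjusted p = 0.0538 to 0.147), and ITGA3 passed only without LCCTam passage 10 (0.0425) and otherwise had 0.0597 to 0.141. Of the dimmer CD44 probe sets, 217523_at passed, at -0.70 (limma adjusted p = 0.0158), and the others did not, with differences of -0.69 to -0.07. Of 13 matrix substrates 1 fell, COL3A1, a fibrillar collagen cut by MMP1, at -4.42 (adjusted p = 0.000261). Of its 4 probe sets 3 passed, and the one that carries neither suffix _x_at nor _s_at, 215077_at, had a difference of 0.02. That probe set was dim in both lines, with means of 4.57 in LCCTam and 4.55 in SUM44 (percentile 19.2 in each). The brightest, 215076_s_at, had means of 4.22 in LCCTam and 8.64 in SUM44. Whether 215077_at detects COL3A1 RNA was not tested.

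**Figure D3:**
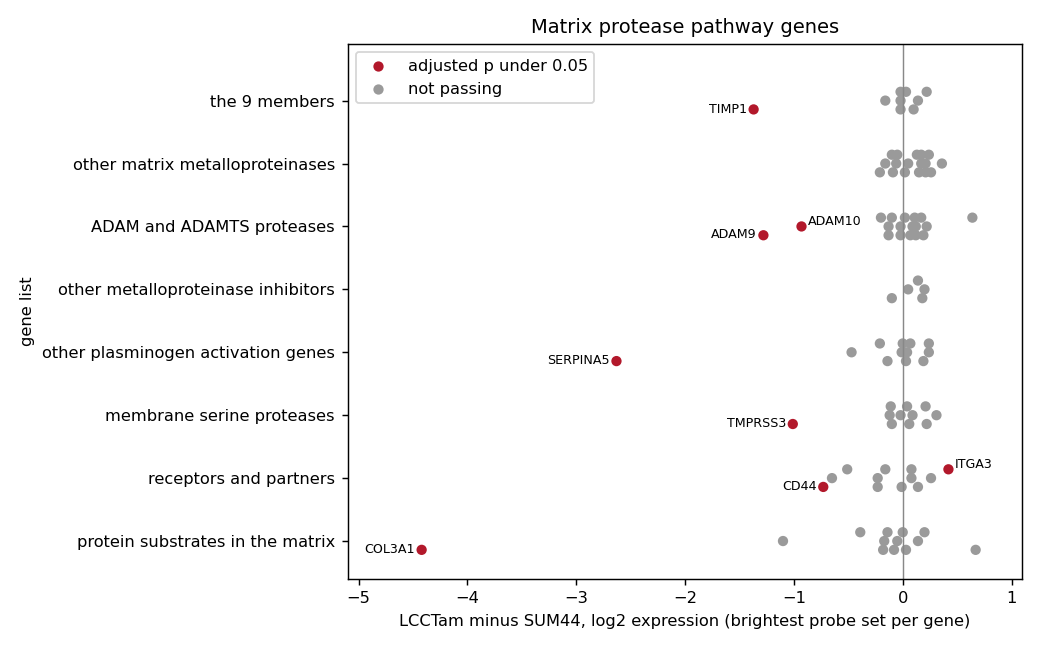
LCCTam minus SUM44 in log2 expression (x axis) of the brightest probe set of each gene, by list (y axis); points are spread vertically for visibility. Red points passed an adjusted p of 0.05 and are named: TIMP1 at -1.37, ADAM9 at -1.28, ADAM10 at -0.93, SERPINA5 at -2.63, TMPRSS3 at -1.01, CD44 at -0.73, COL3A1 at -4.42 and ITGA3 at 0.42.

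The genes whose pattern over the 6 arrays was most like that of TIMP1 were KIAA0232, ALCAM and ACADM. Likeness was the root mean square difference between log2 values centred on each gene's own mean, over 11963 genes. It was 0.094 for KIAA0232, 0.13 for ALCAM, a cell adhesion molecule, and 0.13 for ACADM, an enzyme of fatty acid oxidation. KIAA0232 read 7.36, 7.23 and 7.47 in LCCTam and 8.73, 8.48 and 8.83 in SUM44. ALCAM differed by -1.17 and ACADM by -1.16, and for all 3 every LCCTam value lay below every SUM44 value. Likeness here rests mostly on the shared difference between the lines.

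**Figure D4:**
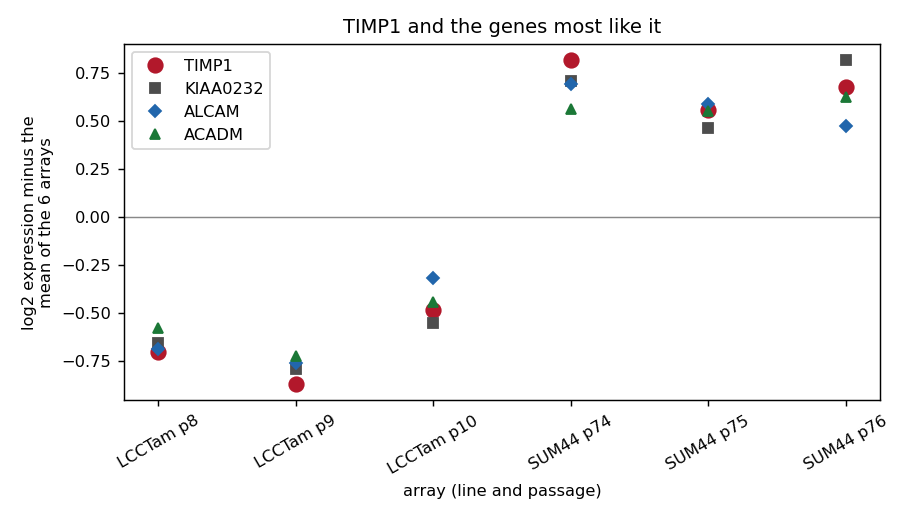
Log2 expression minus the gene's mean over the 6 arrays (y axis) for TIMP1 and the 3 genes most like it, by array (x axis, LCCTam passages 8 to 10 and SUM44 passages 74 to 76). All 4 genes are below their mean on the LCCTam arrays and above it on the SUM44 arrays.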

How the data were processed

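Total RNA of 6 samples, 3 LCCTam and 3 SUM44, was hybridized to Affymetrix arrays with 22283 probe sets. The authors deposited log2 RMA expression values, per the submitters' processing notes. RMA makes the distributions of arrays processed together alike, so a change shared by most genes would not be seen, and it can compress differences of dim probe sets. Whether all 6 arrays were processed together is not known here. Had the lines been processed apart, part of any difference between them could come from the processing. The RMA version and chip definition were not given in the sources used here, and there were no detection calls.

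Groups follow the line named in each title. The labels do not say whether the passages were separate cultures, so p-values reflect only the spread among these arrays, which may be technical. No array batch was named in the labels used here, so effects of batch were not tested. The number of arrays limits the precision.

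Probe sets with 1 gene symbol in the platform annotation, controls left out, entered the fit (19065 probe sets, 11963 genes). Symbols were updated through Entrez identifiers with the RefSeq table of GRCh38.p14. Differences are LCCTam minus SUM44, from lmFit and eBayes of limma 3.58.1 under R 4.3.3 (prior degrees of freedom 3.01), with Benjamini-Hochberg adjustment over all probe sets in the fit. Lists are described by counts and medians, with no list test. Tested on simulated data (19065 probe sets, 50 changed at each size), the fit recovered 34% at a log2 change of 0.5, 66% at 1, 100% at 2 and 98% at 3, with 6.88% of its 160 calls false. The simulation drew independent normal errors of equal quality on all arrays, with the within-line SDs shuffled among probe sets. It held fewer changed probe sets than passed in the real data, so these rates need not hold for the real arrays.

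The members and gene lists were chosen with earlier results of these data known. The genes named are all members, each passing gene of a list or, where none passed, the one with the largest difference, and the 3 genes most like each passing member. COL3A1 is also one of the fibroblast markers, and MUC1 is named as the epithelial marker with the largest difference. Those named among the closing observations were picked with their values known. Some genes of the lists were not analysed here, and each count gives the number measured. The alternatives changed the features in the fit, a filter on low values, the normalization, array weights, the variance prior, the probe set suffixes, the call rule and the arrays included.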

Additional observations from a re-analysis of the deposited data

How the results depend on the processing

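TIMP1 passed, lower in LCCTam, in all 13 alternative fits, with differences of -1.47 to -1.28 (adjusted p = 5.04e-05 to 0.0183), and under the selection in the design text. In the filter on low values (a mean of at least 6 in a line) it was kept through its SUM44 level. Leaving out 1 array gave 1 member probe set passing each time, and array weights gave 2, with MMP14 added. All probe sets passing numbered 1405, and 382 to 2238 when 1 array was left out (lowest without SUM44 passage 75, highest without LCCTam passage 10). They numbered 6207 with array weights, where LCCTam passage 8 had a weight of 5.4 and passage 10 of 0.198, 687 without the _x_at and _s_at probe sets, where fewer were tested, and 425 by the selection in the design text. Of those passing 76.7% were lower, 57.8% with quantile normalization, 52% with array weights and 60.8% without LCCTam passage 10. Pathway genes passing as higher numbered 1, and 2 with quantile normalization, 13 with array weights, 2 with an intensity trend and robust prior, 0 without the _x_at and _s_at probe sets and 0 by the design text's selection; leaving out 1 array gave 0 to 2. Those passing as lower numbered 6, 11 with array weights, and 3 to 7 with 1 array left out (3 without LCCTam passage 8 and 3 without SUM44 passage 75). The main fit measured 88 pathway genes. Over all 19065 named probe sets 327 passed as higher and 1078 as lower. With quantile normalization these numbers were 668 and 915, and with array weights 2977 and 3230. Pathway counts with array weights thus rose along with those of the whole array.

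Differences near 0 that never passed changed sign. With array weights TIMP3 201148_s_at was 0.04, MMP9 was -0.04 and MMP14 202828_s_at was -0.06. With quantile normalization MMP14 160020_at was 0.05 and PLAUR 214866_at was -0.02. Leaving out 1 array gave -0.06 to 0.01 for TIMP3 201148_s_at, -0.02 to 0.12 for TIMP3 201149_s_at, -0.05 to 0.02 for MMP1, -0.05 to 0.09 for MMP3, -0.07 to 0.15 for MMP14 202828_s_at, -0.02 to 0.3 for PLAU 211668_s_at, -0.01 to 0.07 for PLAUR 210845_s_at and -0.07 to 0.04 for PLAUR 214866_at. COL3A1, which passed in the main fit at -4.42, was 0.02 with only probe sets lacking the suffixes _x_at and _s_at, where the dim 215077_at reads it. Except where fewer probe sets or arrays were used, the cause was not tested. No paired analysis was possible because the lines share no passage number. With no detection calls, changes of MMP1 and MMP3 below background were not detectable.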

Other observations

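Several genes that act on or beside the 9 described above had values that did not overlap between the lines and yet did not pass in limma. Each was read by its brightest probe set. FN1, which encodes fibronectin, read 6.97, 6.78 and 6.27 in LCCTam, against 7.02, 7.88 and 8.42 in SUM44 (difference -1.10, limma adjusted p = 0.118). Its SUM44 arrays thus differed among themselves more than the closest pair of the lines did. FN1 did pass the authors' stated selection (2.14-fold, limma unadjusted p = 0.017), while SPARC, FURIN, ITGAV and PLGRKT did not. SPARC, a collagen-binding matrix protein, read 10.42, 10.57 and 10.10 in LCCTam, against 9.28, 9.81 and 10.00 in SUM44 (difference 0.67, adjusted p = 0.108). FURIN, the convertase that activates the MMP14 precursor, differed by 0.31 (adjusted p = 0.0854), higher in 3 of 3 LCCTam arrays. The integrin gene ITGAV differed by -0.65 (adjusted p = 0.0504) and the plasminogen receptor gene PLGRKT by -0.47 (adjusted p = 0.0984). Over all named probe sets 29.6% did not overlap between the lines.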
